A study of Rattus norvegicus with 22 samples.

Results

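The 10 genes described here encode subunits of the transcription factor NF-κB and proteins of its feedback and target set: Nfkb1, Nfkb2, Rela, Relb, Nfkbia, Nfkbiz, Tnfaip3, Bcl3, Icam1 and Traf1. They were chosen by symbol from a table of 17284 genes. A row was present for 8 of the 10, and Relb and Tnfaip3 were not analysed here. All 8 passed the filter of at least 1 FPKM in at least 3 samples, as did 9691 genes in all. FPKM scale the fragments of a gene to its length and to the library, so levels of different genes are set side by side per length.

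RNA sequencing measured microglia, the resident macrophages of the brain, from Sprague-Dawley rats at postnatal day 21, immunopanned with an antibody against CD11b (OX42). There were 22 libraries in 5 groups. In 3 groups the cells received 10% fetal calf serum at the end of an 8-day culture: FCS 1d holds 5 libraries with serum for the last day, FCS 3d holds 4 with serum for 3 days, and FCS 5d holds 4 with serum for 5 days. The 6 TIC libraries come from cells kept for all 8 days in the serum-free medium named TIC, and the 3 Acute libraries from cells taken straight from the brain. The composition of TIC medium is not given in the labels. The labels name no transgene or mutation in any group, and the CD11b capture also takes other myeloid cells. Libraries of a group are called biological replicates, but which of them shared animals or a preparation is not said, so p-values may in part measure technical spread.

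NF-κB is a family of dimers built from RelA, RelB, c-Rel and the products of Nfkb1 (p50) and Nfkb2 (p52). In resting cells the dimers are held back by IκB proteins, and the IKK kinases, switched on below receptors for tumour necrosis factor, interleukin-1 and microbial products, mark IκB for destruction. Freed dimers bind κB sites and switch on inflammatory and survival genes together with their own brakes, among them IκBα and A20. In macrophages and microglia this system drives much of the early cytokine response.

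Because feedback genes of the family are known as its own targets, the proximal promoters were searched for the κB consensus, a motif of 10 bases, on both strands. The window ran from 250 bases before to 50 bases after the start site in RefSeq's promoters for assembly GRCr8. The motif was present in 5 of the 8 genes with a row, against 10.2% of the 7479 tested genes with a promoter entry and 8.16% of all 27457 genes with one. A gene was counted if any of its promoters held a match. The windows of 30 bases around these 5 matches follow, on the strand of the gene, with the motif in capitals.
Nfkb1: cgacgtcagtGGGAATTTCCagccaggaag
Nfkb2: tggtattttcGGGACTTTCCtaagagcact
Nfkbia: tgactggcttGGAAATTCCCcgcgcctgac
Nfkbiz: tttttggcctGGGAATTTCCagcgtgtgga
Bcl3: tcggcggcagGGGAAGTCCCgcagcccggc
They lie at chr2:226805440-226805469 (minus strand) for Nfkb1, chr1:255108344-255108373 (plus) for Nfkb2, chr6:78597084-78597113 (minus) for Nfkbia, chr11:58251698-58251727 (plus) for Nfkbiz and chr1:88613574-88613603 (minus) for Bcl3. Nfkb1 and Nfkbiz share the same 10 motif letters. The motif began 13, 20, 31 and 38 bases upstream of the start in Nfkbiz, Nfkb2, Nfkbia and Bcl3, and 4 bases into the transcript in Nfkb1. In Nfkbia the match reads on the opposite strand, and in Bcl3 it reads on both. The windows of Rela, Icam1 and Traf1 held no match. A match is a description of the letters, and binding was not measured.

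Libraries stood apart in ways that their groups do not explain. Summed FPKM ran from 564301 to 696703 in 6 libraries (Acute 1 to 3, TIC 5, TIC 6 and FCS 1d 5) and from 335470 to 434577 in the other 16. Tested genes listed at 0 numbered 934 to 1295 in 10 libraries and 353 to 672 in 12. The labels mention 2 batches of library preparation and sequencing, each with all conditions, without assigning samples, so batch entered no test. No Acute library has a low sum, and no FCS 3d or FCS 5d library a high one. In the 16 libraries of low sum, steps between low values put relative depth at 0.853 to 4.82 times that of TIC 1; absolute depth is unknown. The 8 microglial markers summed to 990 to 2432 FPKM in TIC and 1565 to 3073 FPKM in the serum groups, against 11730 to 14777 FPKM in Acute libraries. Markers of granulocytes summed to 206 to 507 FPKM in TIC, with 8 of 12 at 0 throughout, against 2150, 19641 and 12830 FPKM in Acute 1 to 3. The TIC sum is nearly all Mmp9, which was 197 to 500 FPKM in TIC, against 1.41 to 52.0 FPKM in Acute libraries. Without Mmp9 the sum was at most 10.8 FPKM in TIC, against 2149 FPKM or more in Acute libraries. In the serum groups the whole list summed to 36.1 to 160 FPKM, with 7 of 12 at 0 in every cultured library. Those of B, T and NK cells reached at most 4.03 FPKM in TIC, against 154 to 337 FPKM in Acute libraries. Immediate early genes summed to 9850 FPKM in Acute 2, against 284 and 293 FPKM in Acute 1 and Acute 3. In bulk RNA, fewer cells of a type and less RNA per cell cannot be told apart.

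**Figure D1:**
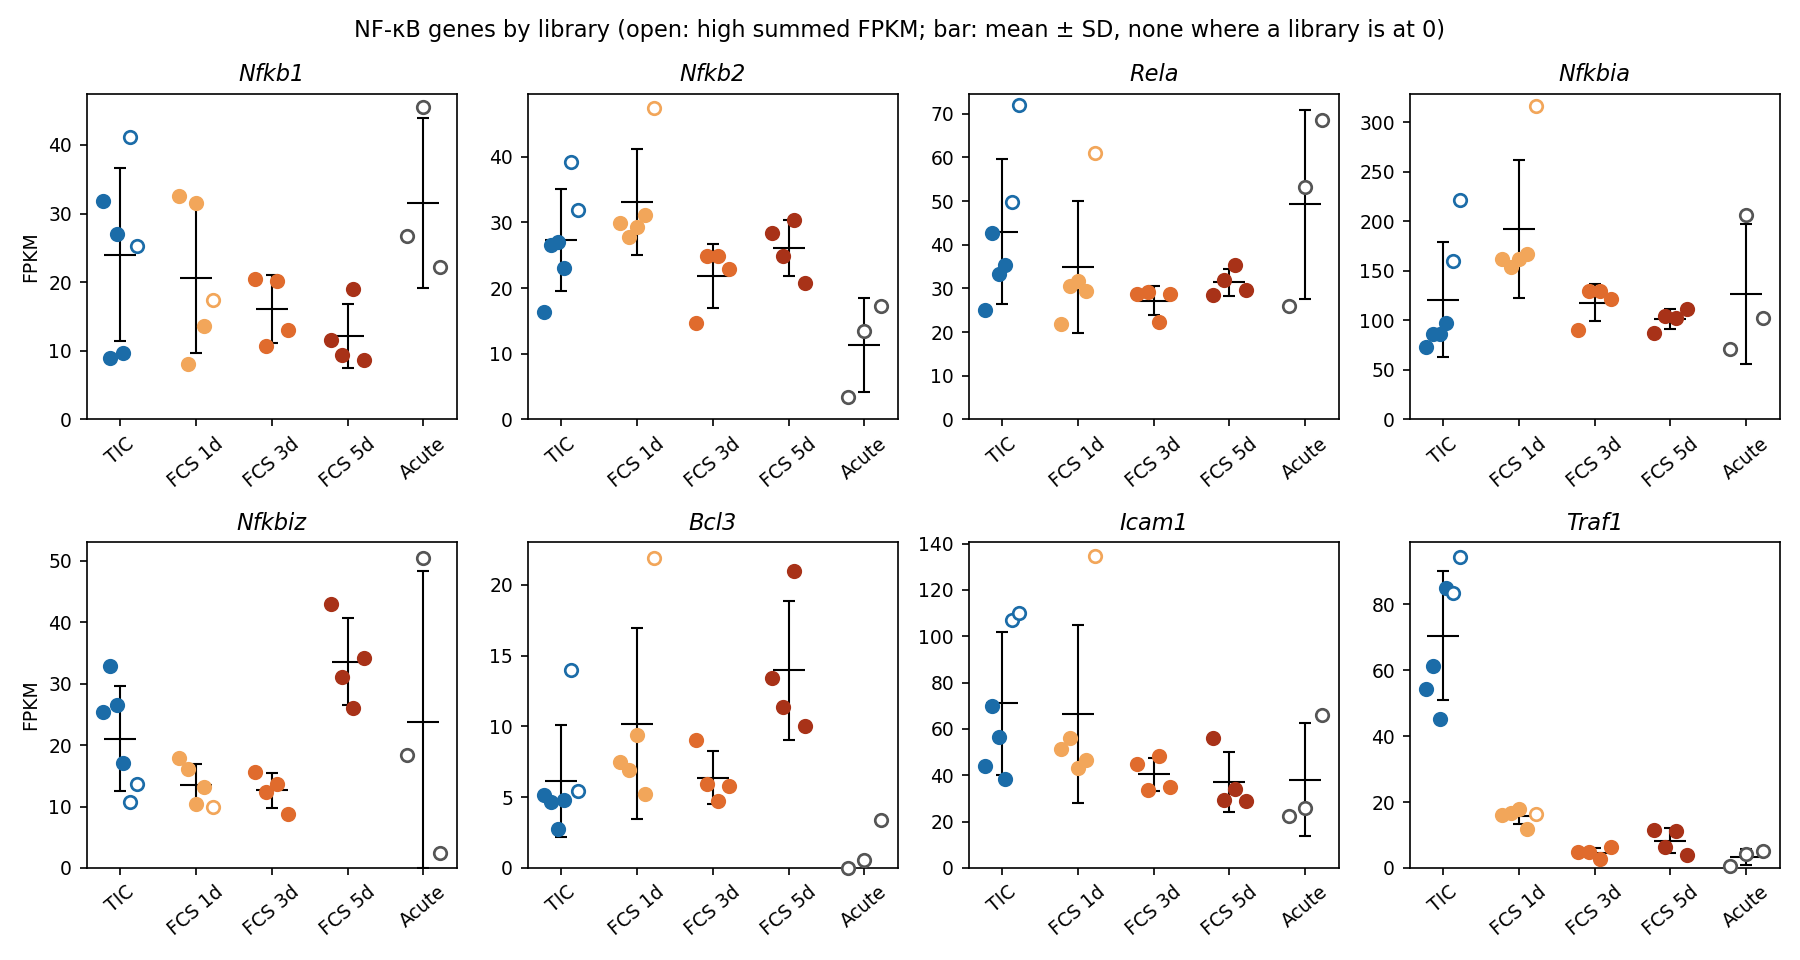
FPKM of the 8 genes in each of the 22 libraries, by group, with the group mean ± SD where no library is at 0 (bars stop at 0 FPKM). Traf1 lies at 45.1 to 94.2 FPKM in TIC and at or below 18.0 FPKM in every serum and Acute library, whereas Rela and Nfkb1 overlap TIC in every other group; open points are the 6 libraries of high summed FPKM.

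Mean levels differed widely among the genes. In every group Nfkbia was the most abundant of the 8 by mean FPKM, with more FPKM than 91.7% to 96.3% of tested genes. Traf1 moved furthest along this scale, standing above 88.7% of tested genes in TIC, 62.9% in FCS 1d, 34.8% in FCS 3d, 48.7% in FCS 5d and 21.2% in Acute cells. Rela kept to 76.5% to 82.4% throughout.

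Culture in TIC medium was set against the freshly isolated state. Of the 8 genes, 3 rose in TIC (Traf1, Nfkb2 and Bcl3) and none fell, where 42.4% of tested genes changed, 14.7% higher and 27.7% lower (limma, Benjamini-Hochberg adjusted p under 0.05). The share of the 8 called in either direction was thus near that of all genes. Over the 8 genes the median change was 0.70 on the log2(FPKM + 1) scale, on which all changes here are given and which understates those of low genes, against -0.29 over all tested genes. Rescaling by median ratios moved the median of all genes by 0.28 and turned the share of higher among called genes to 50.5%, against 34.7% without it. With that rescaling 7 of the 8 genes had a positive change, against 5 without it, so the signs of Rela and Nfkbia depend on the scale.

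Among the subunits, Nfkb2, which encodes p100 and its processed form p52 of the non-canonical pathway, measured 16.3 to 39.1 FPKM in the 6 TIC libraries (median 26.8). Its values were 3.44, 13.5 and 17.3 FPKM in Acute 1 to 3. The ranges overlapped by 1 library on each side, TIC 1 lying below Acute 3. The change was 1.38 ± 0.34 (SE; limma adjusted p = 0.0026). Leaving out Acute 1, the lowest library, gave 0.75 with an adjusted p of 0.055, and the call was also lost in the libraries of high summed FPKM (1.78, adjusted p = 0.13). The libraries of few zeros, whose only Acute library is Acute 3, the highest Acute library for Nfkb2, gave 0.79 (adjusted p = 0.16).

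Nfkb1, which encodes p105 and p50, measured 8.98 to 41.2 FPKM in TIC (median 26.1), against 26.7, 45.6 and 22.2 FPKM in Acute libraries. Rela, which encodes the transactivating subunit p65, measured 25.0 to 72.0 FPKM in TIC (median 39.0), against 25.9, 53.2 and 68.6 FPKM in Acute libraries. For both genes the Acute values lay within or just past the spread of TIC, and neither change passed the test (-0.51 with adjusted p = 0.39 for Nfkb1, -0.16 with adjusted p = 0.71 for Rela). The ratio of Nfkb2 to Nfkb1 FPKM was 0.512 to 2.96 in TIC libraries and 0.129 to 0.777 in Acute libraries, and the ranges overlapped.

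Among the IκB proteins, Bcl3, an atypical nuclear IκB that works with p50 and p52 homodimers, measured 5.18, 4.68, 2.78, 4.79, 14.0 and 5.42 FPKM in TIC 1 to 6. It was listed at 0, 0.579 and 3.37 FPKM in Acute 1 to 3. TIC 3 was the sole TIC library below the highest Acute library. The change was 1.77 ± 0.45 (limma adjusted p = 0.0030). The value moved with the pseudocount, at 0.79 with a pseudocount of 5 and 3.15 with 0.1, past the threshold in both. In the fit of the 12 libraries of few zeros, with Acute 3 as the lone Acute library, it was 0.91 and was not called. In the fit of the 6 libraries of high summed FPKM it was 2.36 with an adjusted p of 0.10.

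Nfkbia, which encodes the inhibitor IκBα and is a textbook early feedback target, measured 73.3 to 221 FPKM in TIC (median 92.2), against 71.4, 207 and 102 FPKM in Acute libraries, a change of -0.04 ± 0.34 (limma adjusted p = 0.93). Nfkbiz, which encodes the nuclear cofactor IκBζ needed for a class of late inflammatory genes, measured 10.7 to 32.9 FPKM in TIC (median 21.2), against 18.3, 50.5 and 2.42 FPKM in Acute libraries. The Acute values of Nfkbiz enclosed the whole TIC range. Acute 2, the library of high immediate early genes, was the highest Acute library for Nfkb1, Nfkbia and Nfkbiz, and its part in these results was not tested beyond leaving it out. The Nfkbiz change over all libraries was 0.45 with an adjusted p of 0.50. It was 1.34 without Acute 2 (adjusted p = 0.030) and turned to -0.62 without Acute 3 (adjusted p = 0.21), so its direction rests on single Acute libraries.

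Among the targets, Traf1, a TRAF adaptor that binds the TNF receptor 2 complex and whose gene is an NF-κB target, measured 54.2, 61.3, 45.1, 84.9, 83.3 and 94.2 FPKM in TIC 1 to 6. In Acute 1 to 3 it measured 0.552, 4.33 and 5.04 FPKM. The groups did not overlap, which holds for 26.0% of tested genes. The TIC mean was 21.3 times the Acute mean, and the log2 change was 4.23 ± 0.38 (limma adjusted p = 5.9e-09). It stayed between 3.19 and 4.79 with an adjusted p of at most 0.0065 in the 23 alternatives run, including the fit of the 6 libraries of high summed FPKM alone.

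Icam1, the adhesion molecule bound by leukocyte integrins, measured 38.4 to 110 FPKM in TIC (median 63.3), against 22.3, 25.9 and 66.2 FPKM in Acute libraries. Acute 3 lay inside the TIC range and the other two lay below it. The change of 0.94 ± 0.39 did not pass (limma adjusted p = 0.057). It passed in 7 of 23 alternatives, among them without Acute 3 (1.41, adjusted p = 0.0081), without TIC 1 (1.05, 0.042), without TIC 4 (1.09, 0.032) and with median-ratio rescaling (1.27, 0.0047).

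**Figure D2:**
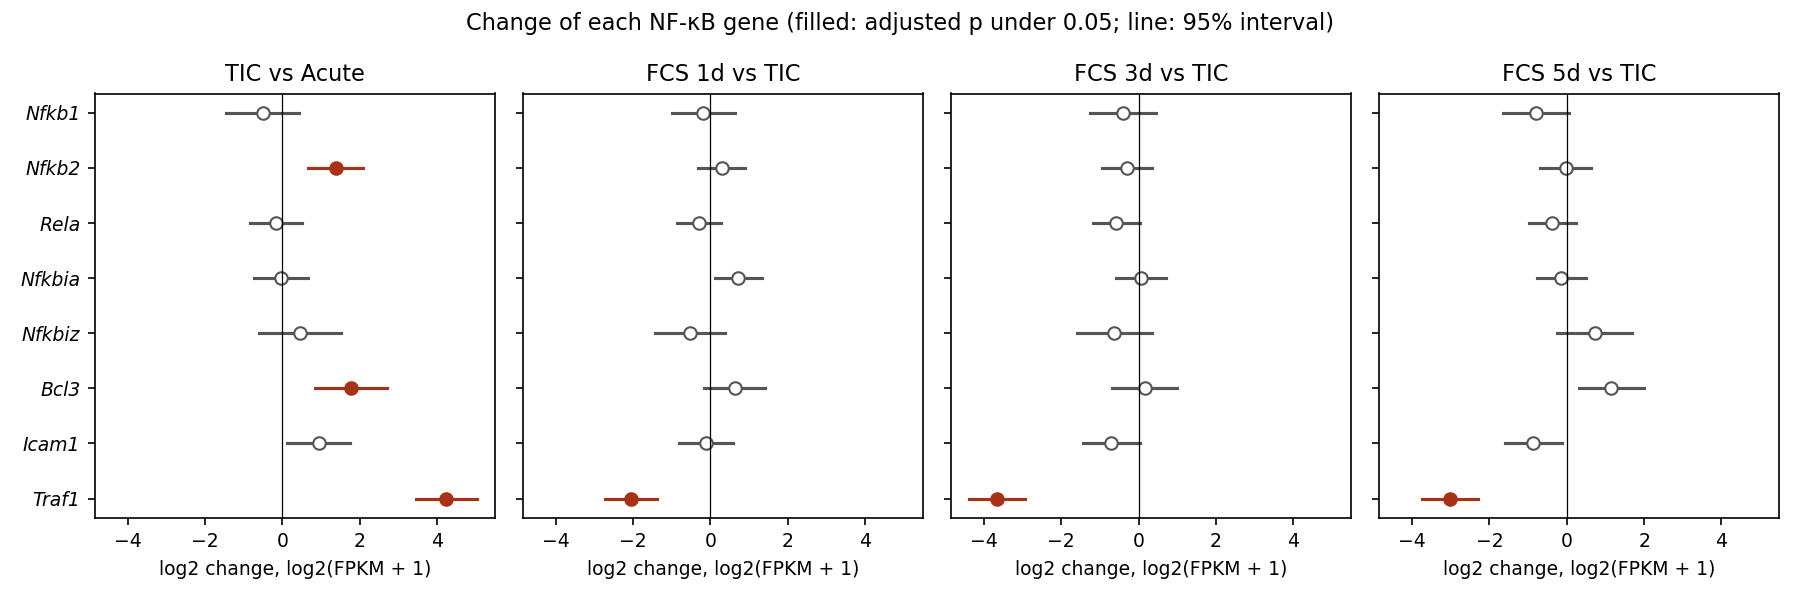
Change of each of the 8 genes on the log2(FPKM + 1) scale, with 95% intervals, in TIC against Acute and in each serum time against TIC; filled points have a limma adjusted p under 0.05. Traf1 is filled in all 4 panels, at 4.23 in TIC against Acute and at -2.05, -3.66 and -3.02 after 1, 3 and 5 days of serum, and the other 7 genes are open in each serum panel.

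Serum was then set against TIC at each time. Traf1 fell at all 3 times and was the only one of the 8 genes called at any of them, where 2.92% of tested genes changed at 1 day, 1.22% higher and 1.70% lower. At 3 days 10.1% changed (4.13% higher, 5.95% lower) and at 5 days 12.9% (4.81% higher, 8.10% lower), shares near that of 1 gene among 8. The median change over the 8 genes was -0.15, -0.49 and -0.25 at 1, 3 and 5 days, against -0.01, -0.06 and -0.08 over all tested genes. These 3 comparisons share the 6 TIC libraries.

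Traf1 measured 16.0, 16.7, 18.0, 11.9 and 16.4 FPKM in FCS 1d libraries 1 to 5. It measured 4.70, 4.97, 2.66 and 6.25 FPKM in FCS 3d libraries and 11.4, 6.23, 11.3 and 3.81 FPKM in FCS 5d libraries. None of the 13 serum libraries overlapped the TIC range of 45.1 to 94.2 FPKM; 3.50%, 11.9% and 13.5% of tested genes were without overlap at 1, 3 and 5 days. The mean after 3 days was 0.0659 times that of TIC. The log2 change was -2.05 ± 0.33 at 1 day (limma adjusted p = 0.00045), -3.66 ± 0.35 at 3 days (adjusted p = 3.2e-07) and -3.02 ± 0.35 at 5 days (adjusted p = 2.2e-06). Within the 16 libraries of low summed FPKM the 3 values were -1.88, -3.47 and -2.83, all past the threshold. In the libraries of many zeros alone, the changes of -1.64 at 1 day (adjusted p = 0.26) and -2.12 at 5 days (adjusted p = 0.17) did not pass; the second of these rests on 1 FCS 5d library. The ratio of Traf1 to Nfkb2 FPKM was 0.346 to 0.612 in FCS 1d, 0.107 to 0.321 in FCS 3d and 0.184 to 0.402 in FCS 5d libraries, against 1.67 to 3.68 in TIC, with no overlap, as for Traf1 alone. The share of gene pairs without overlap was not counted.

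Nfkbia measured 162, 154, 162, 167 and 316 FPKM in FCS 1d libraries 1 to 5, against 73.3, 86.8, 86.7, 97.5, 160 and 221 FPKM in TIC 1 to 6. TIC 5, TIC 6 and FCS 1d 5, the highest library of its group, are those of high summed FPKM. The change over all libraries was 0.72 ± 0.29 and did not pass (limma adjusted p = 0.25). Within the libraries of low summed FPKM the FCS 1d range of 154 to 167 FPKM lay wholly above the TIC range of 73.3 to 97.5 FPKM; 11.4% of tested genes were without overlap there in either direction, and 6.35% were called. There the means were 161 ± 5.27 FPKM in FCS 1d and 86.1 ± 9.93 FPKM in TIC (SD, n = 4 each), with a change of 0.90 (adjusted p = 0.00079). It also passed with the division by summed FPKM as a term (0.86, 0.011), with quantile normalization (0.87, 0.021) and with median-ratio rescaling (0.75, 0.049). The 1-day change passed in 5 of 26 alternatives and was not called in the other 21. The ratio of Nfkbia to Rela, both per length within a library, was 5.05 to 7.41 in FCS 1d and 2.03 to 3.22 in TIC, with no overlap. How many other gene pairs are without overlap was not counted, so this ratio is a description only. After 3 and 5 days Nfkbia stood at 90.6 to 130 and 87.7 to 112 FPKM, and neither change over all libraries passed (0.06, adjusted p = 0.95; -0.14, adjusted p = 0.85). Within the libraries of low summed FPKM, where 17.4% of tested genes were called at 3 days, the change was 0.44 (adjusted p = 0.040). This was the only pass of the 3-day change in 24 alternatives.

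Bcl3 measured 13.4, 11.4, 21.01 and 10.0 FPKM in FCS 5d libraries, against 2.78 to 14.0 FPKM in TIC (median 4.98). TIC 5, a library of high summed FPKM, was the only TIC library inside the FCS 5d range. The change at 5 days was 1.16 ± 0.41 and did not pass (limma adjusted p = 0.065). Of 24 alternatives, 7 called this change and 17 did not. It was 1.4 without TIC 5 (adjusted p = 0.021) and 1.46 within the libraries of low summed FPKM (0.00081), where 19.9% of tested genes were called and the means were 14.0 ± 4.90 FPKM in FCS 5d and 4.36 ± 1.07 FPKM in TIC. At 1 and 3 days Bcl3 measured 5.24 to 21.9 and 4.74 to 9.04 FPKM, changes of 0.63 (adjusted p = 0.57) and 0.16 (0.89).

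Nfkbiz measured 17.9, 16.0, 10.5, 13.2 and 9.91 FPKM in FCS 1d, 15.6, 12.4, 13.6 and 8.85 FPKM in FCS 3d, and 43.0, 31.1, 26.1 and 34.2 FPKM in FCS 5d libraries, against 10.7 to 32.9 FPKM in TIC. Its FCS 1d and 3d values sat in the lower part of the TIC range or just below it, and its FCS 5d values in the upper part or above it. No change against TIC passed over all libraries (-0.54, -0.62 and 0.73, limma adjusted p = 0.73, 0.48 and 0.37). Within the libraries of low summed FPKM the 3-day change was -0.95 (adjusted p = 0.0096), and within those of few zeros the 5-day change was 1.10 (0.011). Each of these was the only pass in 24 alternatives.

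The subunits and Icam1 were not called at any serum time. Nfkb1 measured 8.08 to 32.6, 10.7 to 20.4 and 8.71 to 18.99 FPKM in FCS 1d, 3d and 5d libraries, against 8.98 to 41.2 FPKM in TIC. Its change at 5 days, -0.79 with a 95% interval of -1.65 to 0.06, did not pass (limma adjusted p = 0.24). Nfkb2 stayed within 14.6 to 47.4 FPKM over the serum libraries, against 16.3 to 39.1 FPKM in TIC, and its 3 changes lay between -0.29 and 0.29. Rela measured 21.9 to 61.0, 22.2 to 29.2 and 28.6 to 35.4 FPKM at 1, 3 and 5 days, against 25.0 to 72.0 FPKM in TIC. Icam1 measured 43.2 to 135, 33.5 to 48.2 and 28.9 to 56.1 FPKM at 1, 3 and 5 days, against 38.4 to 110 FPKM in TIC, with a change of -0.86 at 5 days (95% interval -1.60 to -0.12, adjusted p = 0.12). All 4 genes overlapped TIC at each time.

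Serum times were compared with each other. In FCS 5d against FCS 1d none of the 8 genes was called by limma, where 5.38% of tested genes changed (1.92% higher, 3.46% lower), and 3 had an unadjusted p under 0.05. Nfkbia was 87.7 to 112 FPKM in FCS 5d and 154 to 316 FPKM in FCS 1d (-0.86 ± 0.32, adjusted p = 0.13). Nfkbiz was 26.1 to 43.0 FPKM in FCS 5d and 9.91 to 17.9 FPKM in FCS 1d (1.27 ± 0.49, adjusted p = 0.15). Traf1 was 3.81 to 11.4 FPKM in FCS 5d and 11.9 to 18.0 FPKM in FCS 1d (-0.96 ± 0.36, adjusted p = 0.14). None of these 3 genes overlapped between the groups, a pattern of 12.2% of tested genes. Within the libraries of low summed FPKM Nfkbia (-0.67, adjusted p = 0.0047) and Nfkbiz (1.17, 0.0031) passed, where 10.3% of tested genes were called. Each of the 2 genes passed in 4 of 23 alternatives and was not called in the other 19.

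The step between 1 and 3 days was examined after the values were seen. Traf1 fell by 1.60 on the log2 scale in FCS 3d against FCS 1d (SE 0.36, limma adjusted p = 0.029), where 1.08% of tested genes were called (0.444% higher, 0.640% lower). This call was lost on leaving out any library of these groups except FCS 1d 4, with adjusted p of 0.054 to 0.10 and values of -1.41 to -1.74. Traf1, Nfkbia and Nfkb2 were lower in every FCS 3d library than in any FCS 1d library, while 8.74% of tested genes were without overlap in either direction; Nfkbia and Nfkb2 were not called. Between FCS 5d and FCS 3d, where 0.629% of tested genes were called (0.279% higher, 0.351% lower), none of the 8 genes passed and 2 had an unadjusted p under 0.05. Those were Nfkbiz (1.35 ± 0.51, adjusted p = 0.43) and Bcl3 (1.00 ± 0.45, adjusted p = 0.58), whose FCS 5d libraries all lay above their FCS 3d libraries, as was seen without regard to direction in 9.88% of tested genes.

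After 5 days of serum the cells were also set against freshly isolated ones. Of the 8 genes, 3 were higher (Bcl3, Nfkb2 and Traf1) and Nfkb1 was lower in FCS 5d, where 39.8% of tested genes changed, 12.0% higher and 27.9% lower, so the 4 of 8 called lie near this background. Every FCS 5d library has a low and every Acute library a high summed FPKM, so this division and the groups cannot be told apart here. Bcl3 was 10.0 to 21.01 FPKM in FCS 5d, against 0, 0.579 and 3.37 FPKM in Acute libraries, without overlap, as in 38.9% of tested genes (2.92 ± 0.48, limma adjusted p = 5.4e-05). Nfkb2 was 20.7 to 30.4 FPKM in FCS 5d, above the 3.44 to 17.3 FPKM of Acute libraries (1.35 ± 0.37, adjusted p = 0.0062), and lost its call without Acute 1 (0.72, adjusted p = 0.083). In the libraries of few zeros, which hold 1 Acute library, the highest for Bcl3, the change was 1.72 (adjusted p = 0.095). Nfkbiz, at 26.1 to 43.0 FPKM in FCS 5d and 2.42 to 50.5 FPKM in Acute libraries, was not called (1.18, adjusted p = 0.092), with 2.07 without Acute 2 (adjusted p = 0.0031) and 0.11 without Acute 3 (adjusted p = 0.85).

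Traf1, at 3.81 to 11.4 FPKM in FCS 5d, still overlapped the Acute range of 0.552 to 5.04 FPKM at its lower end (1.21 ± 0.41, limma adjusted p = 0.023). Leaving out Acute 1 gave 0.59 (adjusted p = 0.24), and the call was also lost without FCS 5d 1 or FCS 5d 3. Nfkb1 was 8.71 to 18.99 FPKM in FCS 5d, below the 22.2 to 45.6 FPKM of Acute libraries (-1.30 ± 0.49, adjusted p = 0.038). Its call was lost in 10 alternatives, among them both rescalings (-0.86 and -0.74) and leaving out Acute 1, Acute 2, FCS 5d 1, FCS 5d 2 or FCS 5d 4. In the same comparison, added after the values were seen, with FCS 1d and FCS 3d in place of FCS 5d, Nfkb2 (1.67 and 1.08) and Bcl3 (2.39 and 1.92) were called at both times, the Nfkb2 call at 3 days being lost in 6 alternatives, among them without Acute 1 (0.46, adjusted p = 0.28), FCS 3d 2 or FCS 3d 3. Traf1 was called at 1 day (2.18, adjusted p = 0.00015) but not at 3 days (0.57, 0.28). There 38.3% (12.4% higher, 25.9% lower) and 39.4% (11.9% higher, 27.4% lower) of tested genes were called. Nfkb2, Bcl3 and Traf1 did not overlap between FCS 1d and Acute (28.3% of tested genes), nor Bcl3 and Nfkb1 between FCS 3d and Acute (38.6%).

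The genes ranked the groups differently by mean FPKM. Traf1 was highest in TIC and Bcl3 and Nfkbiz in FCS 5d, while Nfkb2 and Nfkbia were highest in FCS 1d. Icam1 had its highest mean in TIC, 71.0 ± 31.0 FPKM (SD, n = 6), next to 66.4 ± 38.5 FPKM in FCS 1d (n = 5), a difference within the spread. Rela and Nfkb1 were highest in Acute cells, at 49.2 ± 21.6 and 31.5 ± 12.4 FPKM (n = 3), and lowest in FCS 3d for Rela (27.2 ± 3.33 FPKM, n = 4) and FCS 5d for Nfkb1 (12.2 ± 4.71 FPKM, n = 4). Rela was called in none of the 10 comparisons of groups in the main fit. For FCS 3d against Acute, 3 of 20 alternatives called Rela lower, among them leaving out Acute 1 (-1.13, limma adjusted p = 0.019). The main fit gave -0.73 there (adjusted p = 0.10). For FCS 1d against Acute, 1 of 22 alternatives called Rela lower.

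Part of the spread within groups moved with the summed FPKM of a library. Among the 19 cultured libraries, the 3 of high sum all lay above the 16 of low sum for Icam1 (107 to 135 FPKM, against 28.9 to 69.9 FPKM), Rela (49.8 to 72.0 FPKM, against 21.9 to 42.8 FPKM) and Nfkb2 (31.8 to 47.4 FPKM, against 14.6 to 31.1 FPKM). Of all tested genes, 17.4% did the same. Nfkb1, Nfkbia, Nfkbiz, Bcl3 and Traf1 overlapped between these sets. Nfkb1 had a spread of another kind, noticed after its values were seen: in each of the 4 cultured groups, libraries 1 and 3 lay above libraries 2 and 4, as in FCS 1d with 32.6 and 31.5 FPKM, against 8.08 and 13.6 FPKM. Of tested genes, 93 (0.960%) showed this pattern, and Nfkb1 was the only one of the 8.

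**Figure D3:**
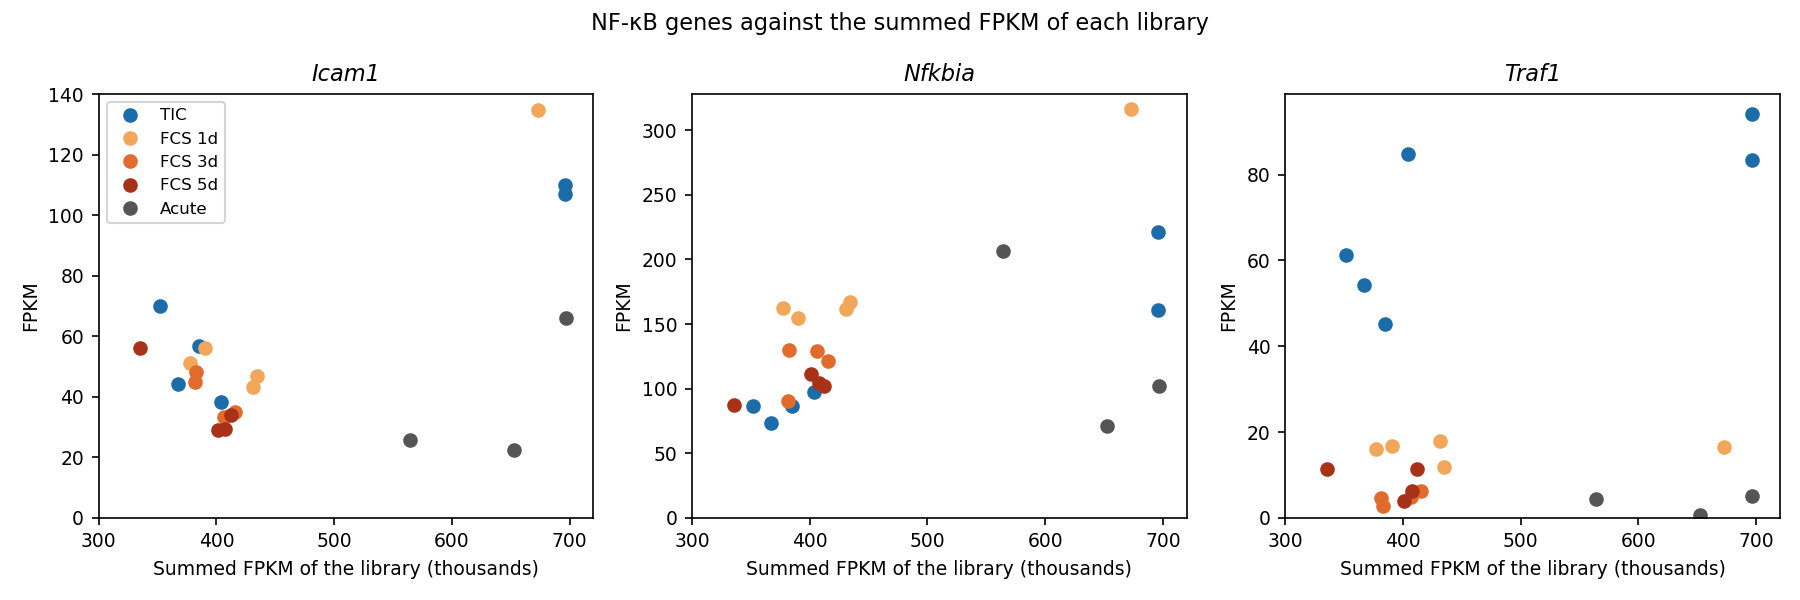
FPKM of Icam1, Nfkbia and Traf1 in each library against the summed FPKM of that library. The 3 cultured libraries of high sum have the highest Icam1 values (107 to 135 FPKM); Traf1 is higher in TIC libraries than in all others at either sum, with TIC at 45.1 FPKM or more; Nfkbia in FCS 1d lies at 154 to 167 FPKM, above TIC, among libraries of low sum.

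The rest of the pathway was read from lists of 64 genes, of which 58 had a row and all 58 were tested. In TIC against Acute, 17 rose and 12 fell, where 14.7% of tested genes were higher and 27.7% lower. The 22 other target genes, which encode cytokines, chemokines, enzymes and survival factors, accounted for 14 of the rises and 5 of the falls, with a median change of 1.89, against -0.29 over all tested genes. Sod2, the mitochondrial superoxide dismutase, averaged 683 ± 268 FPKM in TIC (n = 6) and 51.2 ± 11.7 FPKM in Acute cells (n = 3; SD), a change of 3.64 (limma adjusted p = 3.3e-08). The neutrophil chemokine gene Cxcl1 was 21.9 to 76.3 FPKM in TIC, against 0, 4.99 and 0 FPKM in Acute libraries (4.40, adjusted p = 2.1e-06). The syndecan gene Sdc4 was 25.4 to 83.9 FPKM in TIC, against 1.70 to 5.33 FPKM in Acute libraries (3.45, adjusted p = 3.9e-07).

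Other targets went the opposite way. The lymphocyte chemokine gene Ccl5 was at 0 in 4 TIC libraries and at most 3.68 FPKM in the others, against 33.4 to 136 FPKM in Acute libraries (-5.50, limma adjusted p = 3.0e-09). The activation marker Cd83 was 89.8 to 125 FPKM in TIC, against 229 to 901 FPKM in Acute libraries (-2.32, adjusted p = 4.6e-06). Vcam1, which like Icam1 encodes an adhesion molecule, was listed at 0 in all 6 TIC libraries, against 1.03 to 8.42 FPKM in Acute libraries. Of the granulocyte markers tested, 9 of 10 also fell in TIC and Mmp9 rose, and all 4 tested markers of B, T and NK cells fell; their part in these falls was not tested.

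Upstream of the subunits, 1 of 12 kinase genes rose and 4 fell in TIC, near the 14.7% higher and 27.7% lower of all tested genes. Ikbkg, which encodes the scaffold NEMO of the IKK complex, was 5.06 to 26.5 FPKM in TIC and 1.70 to 6.81 FPKM in Acute libraries (1.38, limma adjusted p = 0.042, lost in 10 of 23 alternatives). Those that fell were Map3k8 (the kinase TPL2), Ripk2 (the kinase below NOD receptors), and Tab2 and Tab1 (partners of the kinase TAK1), at -1.94, -1.68, -1.48 and -1.41. The catalytic IKK genes Chuk (0.15, adjusted p = 0.76) and Ikbkb (-0.65, 0.11) did not pass, nor did Nfkbib (0.90, 0.070) and Nfkbie (0.53, 0.36), which encode IκBβ and IκBε. Among 11 receptors and adaptors, Birc3 (the ubiquitin ligase cIAP2) rose by 1.78, and Tnfrsf11a (the receptor RANK), Traf2 and Traf3 fell, at -3.14, -1.60 and -1.22. This 1 rise and these 3 falls are also near the shares of all tested genes. The Traf3 call (limma adjusted p = 0.029) was lost in 9 of 23 alternatives, and its direction reversed in 1. Of 11 negative regulators, Tnip1, which encodes a partner of A20, rose by 1.4 (adjusted p = 0.0048) and none fell.

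In serum against TIC, 1 of the 58 genes rose and 2 fell at 1 day, and 1 rose and 12 fell at 3 days. At 5 days 2 rose and 14 fell. Of all tested genes, 1.22%, 4.13% and 4.81% were higher and 1.70%, 5.95% and 8.10% lower at 1, 3 and 5 days. Of the 22 targets none rose, and 2, 9 and 10 fell at 1, 3 and 5 days, with median changes of -0.26, -0.92 and -1.15, against -0.01, -0.06 and -0.08 over all tested genes. Tnf, which encodes tumour necrosis factor, was 9.06 to 22.7 FPKM in FCS 1d, against 39.1 to 112 FPKM in TIC (-2.18, limma adjusted p = 0.0040). Sdc4 was 12.9 to 19.2 FPKM in FCS 1d (-1.5, adjusted p = 0.014) and 3.55 to 15.0 FPKM in FCS 3d (-2.46, adjusted p = 0.00013), below every TIC library at both times.

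At 3 days the apoptosis inhibitor Cflar (-2.10), the prostaglandin synthase gene Ptgs2 (-2.08), the stress gene Gadd45b (-1.73) and Birc3 (-1.23) also fell. At 5 days the largest falls among targets were those of Cxcl1 (-3.23), the cytokine gene Il6 (-3.10), Ptgs2 (-3.01) and the urokinase receptor gene Plaur (-2.35). Il6 was at 0 in 3 FCS 5d libraries and at 1.86 FPKM in the remaining one, against 2.24 to 30.1 FPKM in TIC. Cd40 (-1.45) and the ligase gene Birc2 (-1.36) among receptors and adaptors, and Pdlim2 (-2.09) and Tax1bp1 (-0.75) among negative regulators, fell at 5 days. Tnfrsf11a rose by 1.09. Of 24 alternatives, the call was lost in 13 for Cd40, 11 for Birc2, 11 for Tax1bp1, 15 for Tnfrsf11a and 1 for Pdlim2. Birc2, Tax1bp1 and Plaur were higher in the 3 cultured libraries of high sum, none of them FCS 5d, than in the 16 others. Ikbke, a kinase gene of the IKK family, rose at all 3 times, by 1.46, 1.84 and 1.5. It was 1.10 to 5.39 FPKM over the serum libraries, against 0 in 3 TIC libraries and at most 0.691 FPKM in the others. Chuk, Ikbkb, Ikbkg, Nfkbib and Nfkbie were not called at any serum time (limma adjusted p of 0.088 to 0.96).

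After 5 days of serum against 1 day, none of the 58 genes rose and 8 fell, 7 of them targets. Of all tested genes, 1.92% were higher and 3.46% lower. Lcn2 (lipocalin 2), Cxcl1, Ptgs2 and Plaur fell by 2.72, 2.69, 2.65 and 2.43 on the log2 scale, and Pdlim2 fell by 1.39. In 23 alternatives these calls were lost in 4 for Lcn2, 1 for Cxcl1, 1 for Ptgs2, 6 for Plaur and 7 for Pdlim2. In FCS 5d against Acute, 8 rose and 16 fell, near the 12.0% higher and 27.9% lower of all tested genes. Of the 22 targets, 6 rose and 6 fell. The largest changes among them were falls of Ccl5 (-6.20), at 0 in every FCS 5d library, and Lcn2 (-3.76). Il1b (3.51) and Sod2 (3.07) were the largest rises among targets. Il1b measured 361 to 632 FPKM in FCS 5d, against 25.8 to 66.7 FPKM in Acute libraries. Map3k8 and Ripk2 fell by 2.2 and 2.24 on the log2 scale.

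**Figure D4:**
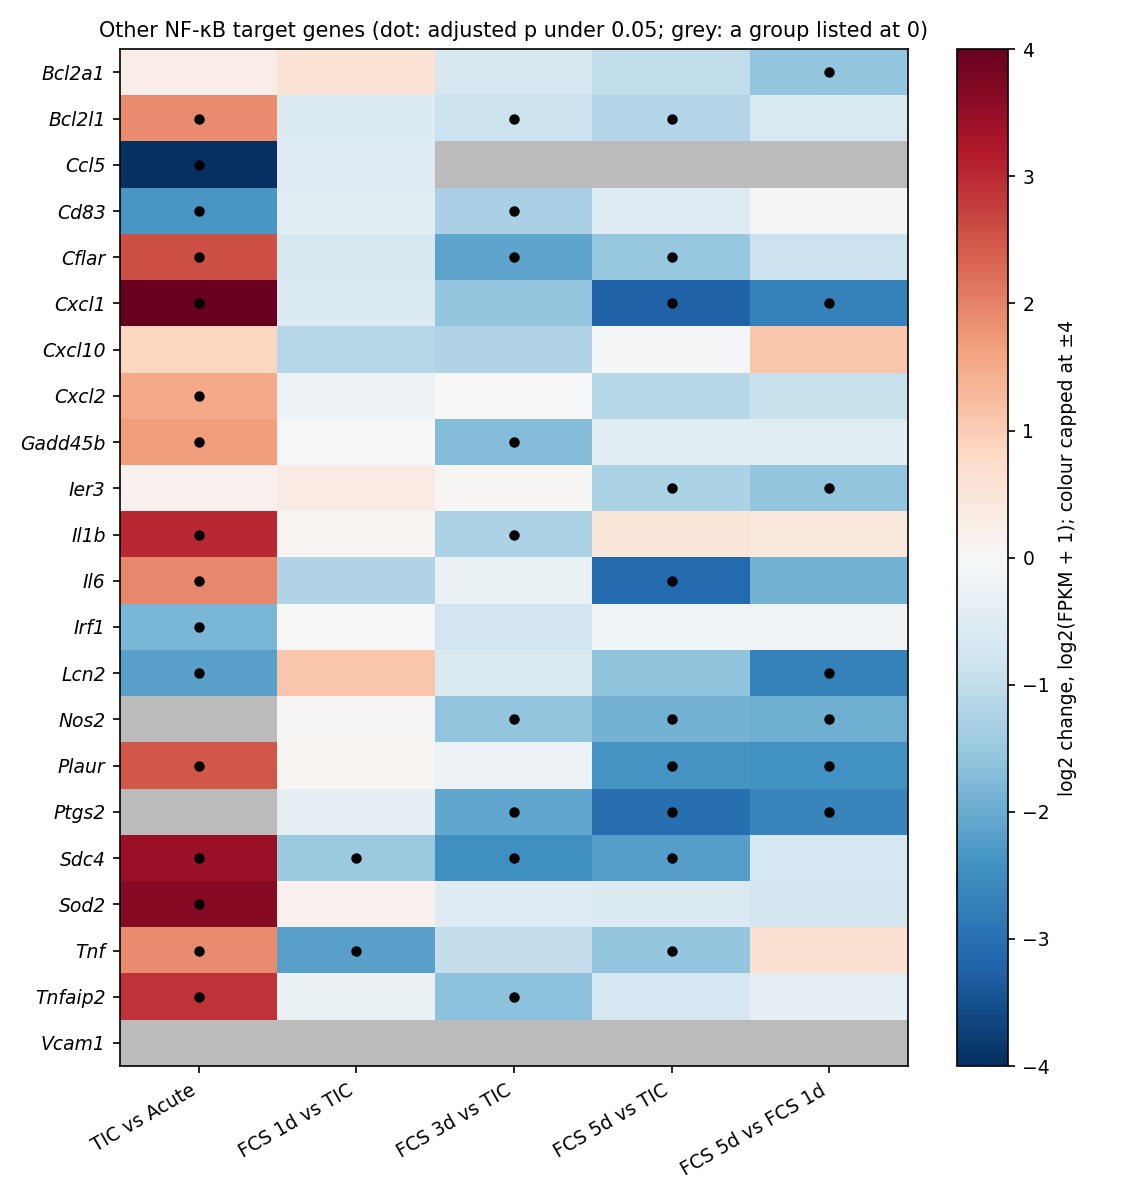
Change of 22 other NF-κB target genes on the log2(FPKM + 1) scale, with colour capped at 4 in either direction, in 5 comparisons; dots mark a limma adjusted p under 0.05, and grey cells, which carry no dot, are those in which a group is listed at 0 in every library. The first column holds mostly rises in TIC (14 of 22 called, including 2 in grey) against 5 falls (1 in grey), and the other 4 columns hold called falls only.

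The genes whose pattern was most like that of 4 members were ranked by Pearson's r over the 19 cultured libraries, as a description in which depth and summed FPKM are shared by all genes. For Traf1 they included Slc6a12 (a betaine and GABA transporter, r = 0.973), Anxa5 (0.961), Ptpro (0.960) and Anxa4 (0.949), for which r over the 16 libraries of low sum was 0.946 to 0.968. For Icam1 they were Emc4 (0.951), Rab7a (0.928), Tsg101 (0.919), Fam134a (0.906) and Arl8b (0.903). All 5 of these were higher in the 3 cultured libraries of high sum than in the 16 others, as Icam1 was. For Nfkbia, Plbd2 (0.916) and Polr2e (0.899) led, and for Nfkb2, Slc39a11 (0.851) and Agtrap (0.849). Over the 16 libraries of low sum, r was 0.830 for Plbd2, 0.823 for Polr2e, 0.737 for Slc39a11 and 0.712 for Agtrap. Slc39a11 and Agtrap were also higher in the 3 cultured libraries of high sum than in the 16 others.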

How the data were processed

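The authors deposited FPKM values in 1 table. HISAT2 2.0.3, Cufflinks 2.2.1 and rn6 appear, per the submitters' processing notes, with no settings. SmartSeq2 amplification of poly-A RNA and 75 bp paired reads are given per the labels' protocols. Members, lists and alternatives were chosen with earlier results of these data known. The 9691 genes reaching 1 FPKM in 3 or more samples were transformed to log2(FPKM + 1). A model of 5 group means over 22 samples was fitted in limma 3.58.1 (R 4.3.3) with a variance trend and robust variances. It was also run on simulated data with independent normal noise. That simulation held no differences of summed FPKM or depth between libraries, so it does not show how the model handles them. Tests were two-sided, and p-values were adjusted over all tested genes (Benjamini-Hochberg, threshold 0.05). The divisions of libraries by summed FPKM and by zeros were drawn from the data. Pathway genes named are IκBβ, IκBε and IKK genes, and, per list and comparison, the called genes ranked by size of change (at most 4), with at most 2 more of the opposite direction. Alternatives changed the pseudocount, filter, scaling, model and libraries. Promoters are RefSeq's for GRCr8 and were matched by symbol. An exact 0 may be a failed estimate.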

Additional observations from a re-analysis of the deposited data

Results flagged for a closer look

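In FCS 1d, library 5 stood apart from the others of its group for 3 genes: Nfkb2 at 47.4 FPKM (others 27.8 to 31.1), Nfkbia at 316 FPKM (154 to 167) and Icam1 at 135 FPKM (43.2 to 56.0). It is the FCS 1d library of high summed FPKM, and the part of that difference was not tested. Traf1 in FCS 1d 4 was low at 11.9 FPKM (16.0 to 18.0). In FCS 3d, Nfkb2 in library 1 was low at 14.6 FPKM (22.8 to 24.9) and Rela in library 3 was low at 22.2 FPKM (28.7 to 29.2). Chance sets apart about 1 in 20 groups, and here 6 of 32 were. The Traf1 response differed between serum times, by -1.60 in FCS 3d against FCS 1d in limma's test of that difference; the call was lost in 11 alternatives, among them leaving out any library of these groups except FCS 1d 4 (adjusted p of 0.054 to 0.10).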

How the results depend on the processing

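Over the 8 genes and 10 comparisons, 1701 of 1816 alternative values kept their call, with its direction, or their lack of one. Of the rest, 52 lost and 61 gained a call, and 2 were counted as reversed. Values called in neither fit count as kept whatever their sign, as Nfkbiz in TIC against Acute without Acute 3 (-0.62, against 0.45). The reversals were Nfkbiz in FCS 1d (1.82) and FCS 3d (1.75) against Acute in libraries of few zeros, whose lone Acute library, Acute 3, is the lowest for Nfkbiz; without Acute 3 these were called lower (-1.16 and -1.24). In the lists, Traf3 in TIC against Acute (0.56, few zeros) and Nfkbib in FCS 5d against Acute (1.38, summed-FPKM term) reversed; the cause was not tested. Members called in TIC against Acute (3) were 1 in high-sum libraries and 2 to 4 leaving out each library. For FCS 1d against TIC (1) they were 2 under both rescalings, the replicate block, the summed-FPKM term and low-sum libraries, 0 in high-sum or many-zeros libraries and 1 to 1 leaving out each. For FCS 3d against TIC (1) they were 3 in low-sum libraries and 1 to 1 leaving out each. For FCS 5d against TIC (1) they were 2 with a pseudocount of 5, both rescalings, the block, the summed-FPKM term, low-sum and few-zeros libraries, 0 in many-zeros libraries and 1 to 2 leaving out each. At 5 against 1 day of serum (0) they were 2 with only these groups and in low-sum libraries, 1 with median ratios, the block, the zeros term and few-zeros libraries, and 0 to 0 leaving out each. Against Acute, FCS 5d had 4 called, but 2 with only these groups, 1 in few-zeros libraries and 1 to 4 leaving out each.

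Whether replicate numbers pair samples is not said, and the values did not settle it. Deviations from group means correlated above 0.1 in 4 of 5 same-numbered pairs for FCS 1d against TIC (r of 0.097 to 0.48). In FCS 5d against Acute this held for 0 of 3 pairs, and in the other comparisons for 1 of 3 to 3 of 4. The main fit used no pairing. With the block Nfkbia in FCS 1d against TIC was 0.92 (adjusted p = 0.0050) and Bcl3 in FCS 5d against TIC 1.45 (0.0088), and Rela was called lower in FCS 1d (-0.64, 0.037) and FCS 3d (-0.75, 0.019) against Acute. All-gene counts moved over 1.5 times: TIC against Acute 4106, or 2727 with only these groups, 934 in high-sum and 1974 in few-zeros libraries; FCS 1d against TIC 283, or 489 with the block, 458 with the sum term, 615 in low-sum, 129 in few-zeros, 54 in many-zeros and 0 in high-sum libraries; FCS 3d against TIC 977, or 1690 in low-sum, 187 in many-zeros, 623 without FCS 3d 1 and 619 without FCS 3d 2; FCS 5d against TIC 1251, or 1931 in low-sum, 131 in many-zeros and 816 without FCS 5d 4; FCS 5d against FCS 1d 521, or 817 with the zeros term, 994 in low-sum, 46 in many-zeros and 344 without FCS 5d 2; FCS 5d against Acute 3861, or 2160 in few-zeros libraries. Pathway counts moved likewise: TIC against Acute 29, or 15 in high-sum libraries; FCS 1d against TIC 3, or 6 in low-sum, 1 in few-zeros and 0 in high-sum or many-zeros libraries; FCS 3d against TIC 13, or 8 in few-zeros and 4 in many-zeros libraries; FCS 5d against TIC 16, or 2 in many-zeros libraries; FCS 5d against FCS 1d 8, or 5 without FCS 5d 1 or FCS 5d 4 and 0 in many-zeros libraries. Subsets hold fewer samples: 1 Acute library has few zeros, 1 FCS 5d library many zeros and 1 FCS 1d library a high sum, and each is assumed to vary like the other groups. Low genes are limited by unknown depth and zeros.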
